A study of Mus musculus with 12 samples.

Results

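The IL-36 system was followed through 6 genes in mouse back skin: the ligand genes Il36a, Il36b and Il36g, the receptor antagonist gene Il36rn, the receptor gene Il1rl2, and Il1f10, which encodes the related cytokine IL-38. They were chosen by gene symbol from the 18505 gene symbols listed with expression values. All 6 were found, 4 of them under an older symbol (Il36a as Il1f6, Il36b as Il1f8, Il36g as Il1f9 and Il36rn as Il1f5). Expression is given as FPKM, fragments of a gene scaled to both transcript length and sequencing depth.

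RNA-seq was performed on skin taken on day 10 from male wild-type BALB/c mice that were 5 to 6 weeks old. The control group received petroleum jelly on the shaved back. The IMQ + NS group received imiquimod (IMQ) cream, a Toll-like receptor 7 agonist that produces psoriasis-like lesions, for 6 h, and the site was then covered with 0.9% NaCl solution. In the IMQ + BZLF group the same cream was followed by a cover with Banzhilian formula (BZLF), a formula of traditional Chinese medicinal materials prepared as granules. Treatments were repeated daily over 10 days. In the IMQ-treated groups the site was held under gauze and polyurethane film, which the study does not describe for control. The control thus differed from them in cream base and cover as well as in IMQ. Each of the 3 groups held 4 samples. The dose of BZLF given to the sequenced mice was not stated, and the samples were whole skin, so every value is an average over all cell types of the lesion. The labels do not say whether each sample came from a separate mouse, so p-values measure the spread between these samples.

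IL-36 cytokines belong to the IL-1 family and are made mainly by keratinocytes. The ligands IL-36α, IL-36β and IL-36γ bind the receptor encoded by Il1rl2, which pairs with the shared subunit IL-1RAcP (Il1rap) and signals through MyD88 to NF-kappa B and MAP kinases. The antagonist IL-36Ra (Il36rn) binds the same receptor without recruiting the subunit, and loss of its function in people causes generalised pustular psoriasis. The proteins gain full activity only after proteases trim their N-terminus, which RNA levels do not show.

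Per sample the table summed to between 444660 and 506622 FPKM, with 16649 to 16941 genes above 0, and the number of fragments behind a value is unknown. On the first principal component, which held 76.4% of the variance, control replicate 2 scored -63.2, away from the other control samples. Seminal vesicle genes (Svs2, Svs4, Svs5 and Svs6) added up to 36.6 FPKM in control replicate 2, to 36.3 FPKM in IMQ + BZLF replicate 2, and to under 1 FPKM in the other samples. The numbers of IL-36 family genes called against control were the same without control replicate 2 or without IMQ + BZLF replicate 2. In IMQ + BZLF against IMQ + NS, however, Il36b and Il36rn were no longer called without IMQ + BZLF replicate 2. They were lost in 6 of the 8 fits that each left out 1 sample. Epidermal markers were present throughout, as the 7 genes Krt5, Krt14, Krt1, Krt10, Krtdap, Dsg1a and Lor added up to at least 2743 FPKM in every sample.

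In the RefSeq annotation of GRCm38.p6 (the submitters' processing notes name mm10), 5 of the 6 genes lay side by side on the plus strand of chromosome 2. In order they were Il36b (chr2:24153172-24160103), Il36g (chr2:24186476-24193567), Il36a (chr2:24215417-24225701), Il36rn (chr2:24276954-24282432) and Il1f10 (chr2:24291196-24294165). They spanned 141.0 kb, and no other protein-coding gene lay between them. The next gene was Il1rn (chr2:24336860-24351491), which encodes the IL-1 receptor antagonist. Il1rl2 lay on chromosome 1 (chr1:40324589-40367555), also on the plus strand.

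The 250 bases before the annotated start were read from RefSeq for 5 of the 6 genes. Il36a had no entry. The windows of 4 neighbours are shown because Il36b, Il36g and Il36rn were called lower after BZLF and Il1f10, next to Il36rn, was not. Capitals mark matches to the motifs searched.
Il36b (chr2:24152922-24153171, plus strand): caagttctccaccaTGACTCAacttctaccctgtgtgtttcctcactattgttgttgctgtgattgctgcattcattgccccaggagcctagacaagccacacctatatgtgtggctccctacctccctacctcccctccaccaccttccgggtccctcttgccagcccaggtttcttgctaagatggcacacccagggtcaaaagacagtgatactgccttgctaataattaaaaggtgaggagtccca
Il36g (chr2:24186226-24186475, plus strand): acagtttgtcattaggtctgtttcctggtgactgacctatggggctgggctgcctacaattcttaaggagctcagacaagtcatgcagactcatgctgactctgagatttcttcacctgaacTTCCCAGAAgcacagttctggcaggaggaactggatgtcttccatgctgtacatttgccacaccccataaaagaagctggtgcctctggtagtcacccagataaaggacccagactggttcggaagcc
Il36rn (chr2:24276704-24276953, plus strand): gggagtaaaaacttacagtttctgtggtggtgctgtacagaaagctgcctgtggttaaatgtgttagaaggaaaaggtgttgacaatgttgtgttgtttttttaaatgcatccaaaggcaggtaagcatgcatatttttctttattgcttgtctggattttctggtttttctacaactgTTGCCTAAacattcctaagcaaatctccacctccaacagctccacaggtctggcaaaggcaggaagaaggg
Il1f10 (chr2:24290946-24291195, plus strand): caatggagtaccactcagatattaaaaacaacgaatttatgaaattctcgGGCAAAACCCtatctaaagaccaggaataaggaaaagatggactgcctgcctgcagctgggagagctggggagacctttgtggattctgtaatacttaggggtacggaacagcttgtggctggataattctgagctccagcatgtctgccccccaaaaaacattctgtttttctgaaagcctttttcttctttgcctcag

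On both strands, 6 motifs were searched, and no match overlapped another. The Il36b window held an AP-1 motif (TGANTCA), which 6.75% of the 32851 RefSeq windows of this length held. A STAT motif (TTCNNNGAA) lay in the Il36g window and in 7.02% of all windows. A C/EBP motif (TTGCNNAA) lay in the Il36rn window, in the Il1rl2 window and in 9.56% of all windows. On the minus strand, the Il1f10 window matched the 10-letter pattern searched for NF-kappa B, as did 4.11% of all windows. That pattern left some positions open to any base, and whether the match meets a stricter NF-kappa B consensus was not tested. The Il1rl2 window held a TATA box (TATAAA) on the minus strand, found in 12.4% of all windows. A Grainyhead-like motif (AACCNGTT, in 1.79% of all windows) was in none of the 5 windows. Each of the 5 windows thus differed from the others in its set of matches. The windows of Il36b, Il36g and Il36rn, called lower after BZLF, shared no motif among those searched. Il36a was also called lower and had no window to search. A match describes the letters of a window and no binding was measured here.

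Normal skin was compared with psoriasis-like skin first. After IMQ, 5 of the 6 genes were called higher, at a Benjamini-Hochberg adjusted p below 0.05 in limma and a log2 fold change over 1, against 22.4% of the 15288 genes tested that were called and 11.4% that were called higher (11.0% were called lower). Without the fold threshold all 6 passed on adjusted p, against 56.1% of the genes tested. In all 6 genes the lowest IMQ + NS sample was above the highest control sample, as was the case in either direction for 49.4% of the genes tested. The increase was largest for the ligand Il36a and did not reach the fold threshold for the receptor gene Il1rl2.

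Il36a, which encodes IL-36α, was the least abundant of the 6 genes in control skin. The control samples, in replicate order, had 0.340, 0.312, 0.434 and 1.37 FPKM of Il36a. Those of IMQ + NS had 38.0, 53.2, 78.0 and 32.5 FPKM. The IMQ + BZLF samples had 1.49, 2.98, 11.1 and 5.86 FPKM. The 3 groups did not overlap for Il36a, with IMQ + NS highest and control lowest. The highest sample was 7.48 times the lowest in IMQ + BZLF, 4.40 times in control and 2.40 times in IMQ + NS. The SD was 79.3%, 82.6% and 40.4% of the mean in the same order. The control mean of 0.614 ± 0.507 FPKM (SD, n = 4) rose after IMQ to 50.4 ± 20.4 FPKM. Its log2 fold change was 6.28 (SE 0.43, adjusted p = 1.1e-05 in limma). In IMQ + BZLF samples the mean was 5.36 ± 4.25 FPKM, and the log2 fold change against IMQ + NS was -3.49 (95% interval -4.72 to -2.25, adjusted p = 0.0090 in limma). Against control samples the log2 fold change of Il36a after BZLF was 2.79 (95% interval 1.37 to 4.21, adjusted p = 0.0058 in limma), so that it remained higher than in normal skin.

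Il36b encodes IL-36β. Control samples had 1.62, 2.47, 4.34 and 4.96 FPKM, IMQ + NS samples 26.2, 34.2, 39.9 and 18.6 FPKM, and IMQ + BZLF samples 6.10, 8.50, 19.4 and 12.02 FPKM of Il36b. The IMQ + BZLF samples were all above the control samples, and their highest value, replicate 3, was above the lowest IMQ + NS value, replicate 4. The rise after IMQ was 3.19 on the log2 scale (SE 0.37, adjusted p = 0.00017 in limma). The fall after BZLF had a log2 fold change of -1.44 (95% interval -2.23 to -0.65, adjusted p = 0.044 in limma), while the two-sided exact permutation test of 4 against 4 samples gave p = 0.0571 without adjustment. Mean Il36b expression in IMQ + BZLF samples, 11.5 ± 5.82 FPKM (SD, n = 4), was still above the control mean of 3.34 ± 1.56 FPKM, with a log2 fold change of 1.75 (adjusted p = 0.0086 in limma).

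Il36g, which encodes IL-36γ, had 4.77, 3.31, 8.13 and 7.60 FPKM in control samples. It had 24.8, 30.8, 47.7 and 26.0 FPKM in IMQ + NS samples and 3.11, 5.64, 9.35 and 8.996 FPKM in IMQ + BZLF samples. The IMQ + BZLF and control samples were intermingled, and both lay below every IMQ + NS sample. The log2 fold change was 2.46 after IMQ (SE 0.31, adjusted p = 0.00027 in limma) and -2.31 after BZLF, relative to NS-treated lesions (SE 0.35, adjusted p = 0.0076 in limma). Between IMQ + BZLF and control samples the difference in Il36g was 0.15 on the log2 scale, with a 95% interval from -0.76 to 1.05 (adjusted p = 0.77 in limma), which leaves room for a change of up to about that size in either direction. The study had picked Il36g and Il36rn among its core targets on these same samples, so their direction here is not independent evidence.

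The antagonist gene Il36rn was the most abundant of the family by mean FPKM in all 3 groups. In single samples it was below Il1rl2 in control replicate 2 (14.7 FPKM) and below Il1f10 in IMQ + BZLF replicate 1 (30.6 FPKM). Its values were 15.1, 11.6, 24.8 and 27.1 FPKM for control, 67.9, 78.4, 90.9 and 51.8 FPKM for IMQ + NS, and 22.4, 27.8, 50.0 and 34.1 FPKM for IMQ + BZLF samples. Every IMQ + NS sample was above every other sample, the closest being IMQ + BZLF replicate 3, and the IMQ + BZLF samples overlapped the control samples. Il36rn rose after IMQ by 1.93 on the log2 scale (SE 0.29, adjusted p = 0.00061 in limma). It fell after BZLF with a log2 fold change of -1.14 (95% interval -1.70 to -0.58, adjusted p = 0.029 in limma). Against control samples, IMQ + BZLF samples differed by 0.79 on the log2 scale (95% interval 0.059 to 1.52, adjusted p = 0.066 in limma), which did not pass the threshold.

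The receptor gene Il1rl2 stayed within a narrow range of levels. Control samples had 13.8, 14.7, 14.4 and 12.02 FPKM, IMQ + NS samples 16.3, 17.0, 18.8 and 16.5 FPKM, and IMQ + BZLF samples 11.7, 15.0, 14.3 and 15.0 FPKM. The IMQ + NS samples were above all others, and the remaining groups overlapped. The difference after IMQ was 0.32 on the log2 scale (95% interval 0.12 to 0.53, adjusted p = 0.014 in limma), which passed on p but was below the fold threshold. After BZLF it was -0.30 against IMQ + NS (95% interval -0.50 to -0.098, adjusted p = 0.084 in limma) and 0.026 against control (95% interval -0.22 to 0.27, adjusted p = 0.86 in limma). The intervals did not reach a change by the fold threshold in any of the 3 comparisons.

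Il1f10, which encodes IL-38, a cytokine described as an antagonist in this family, was not among the genes called lower after BZLF. Control samples had 7.14, 3.80, 9.92 and 9.16 FPKM of Il1f10. NS-treated lesions had 27.8, 26.8, 15.7 and 24.4 FPKM, and BZLF-treated lesions had 30.6, 23.5, 24.7 and 32.7 FPKM. Both IMQ-treated groups were above all control samples and overlapped each other. The log2 fold change was 1.70 after IMQ (SE 0.31, adjusted p = 0.0017 in limma) and 1.95 when IMQ + BZLF was set against control (SE 0.28, adjusted p = 0.00070 in limma). Between IMQ + BZLF and IMQ + NS samples it was 0.25 (95% interval -0.16 to 0.67, adjusted p = 0.46 in limma), and this interval excluded a fall of the size estimated for Il36rn, whose own interval ended at -0.58. The change of Il1f10 after BZLF was set against that of each of the 4 neighbours, a comparison chosen after the values were seen. It was higher by 3.74 on the log2 scale than that of Il36a, by 2.57 than that of Il36g and by 1.39 than that of Il36rn (two-sided exact permutation p = 0.0286 each, 0.0381 after Benjamini-Hochberg adjustment over the 4). Against Il36b it was higher by 1.69, with overlapping groups and an exact permutation p of 0.0571, which did not pass.

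**Figure D1:**
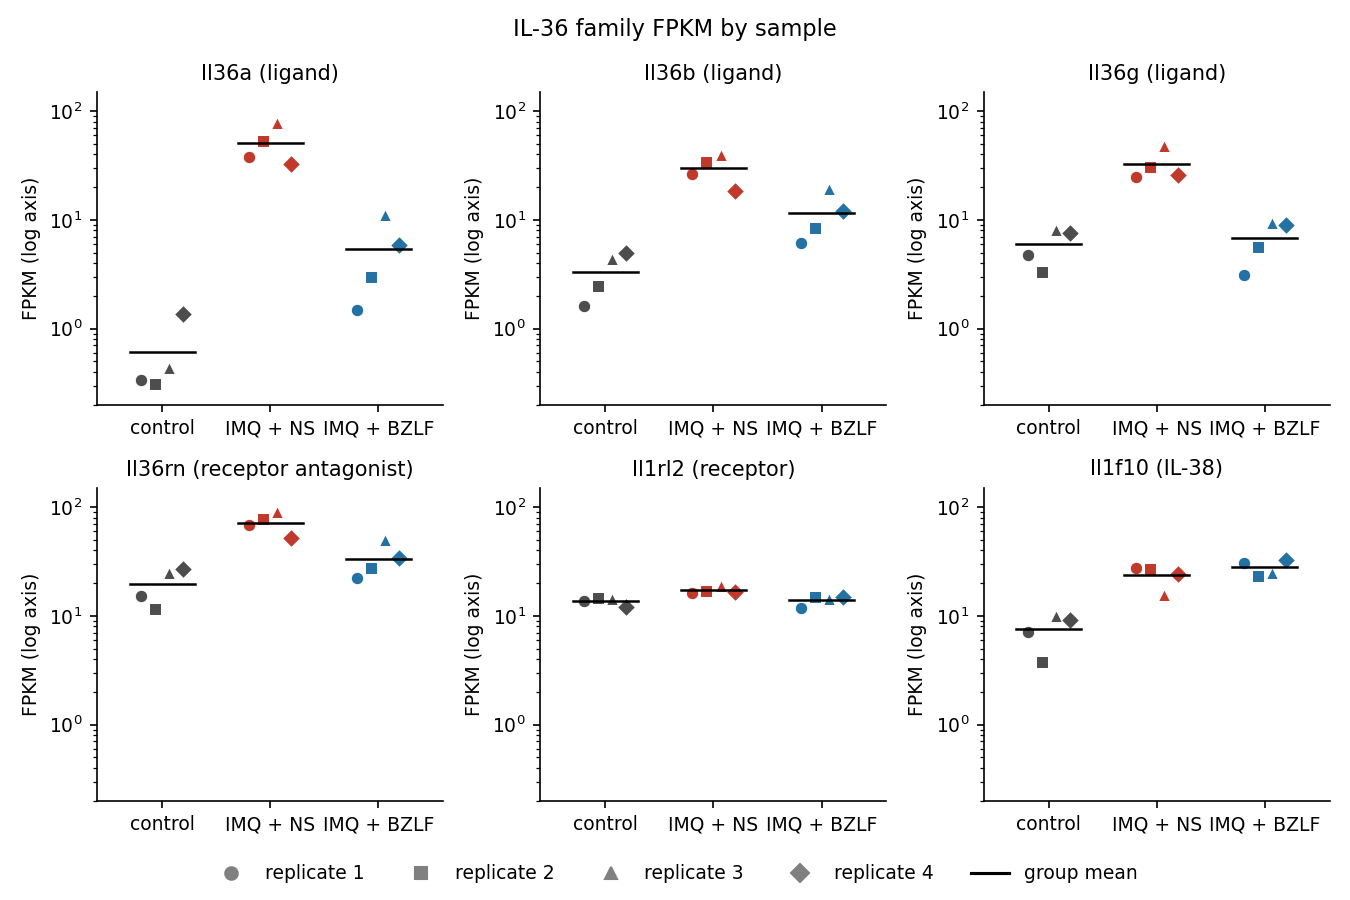
FPKM (log axis) of the 6 genes in each of the 12 samples, with the group mean as a line and the replicate number as the symbol. Il36a, Il36b, Il36g and Il36rn were high in IMQ + NS and lower in IMQ + BZLF samples, Il1rl2 stayed between 11.7 and 18.8 FPKM, and Il1f10 was high in both IMQ-treated groups.

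BZLF-treated lesions were compared with NS-treated lesions to see which of the IMQ changes were smaller after the formula. Of the 6 genes, 4 were called lower (Il36a, Il36b, Il36g and Il36rn) and none was called higher, against 2.52% of the 15288 genes that were called and 2.20% that were called lower (0.321% were called higher). The same 4 genes passed on adjusted p without the fold threshold, against 6.45% of the genes tested. In 4 genes (Il36a, Il36g, Il36rn and Il1rl2) the groups did not overlap, against 15.2% of the genes tested. The calls for Il36a and Il36g held when any single sample was left out. Those for Il36b and Il36rn were lost in 6 of the 8 fits that each left out 1 sample (IMQ + NS replicate 1, 2 or 3, or IMQ + BZLF replicate 1, 2 or 4), although over all 8 fits the log2 fold changes stayed between -1.73 and -1.18 for Il36b and between -1.35 and -0.96 for Il36rn. The calls for Il36b and Il36rn were also lost when all 12 samples entered one fit (adjusted p = 0.070 and 0.056 in limma).

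IMQ + BZLF samples were also set against control samples, where 3 of the 6 genes (Il36a, Il36b and Il1f10) were called higher and none lower, against 19.7% of all genes tested that were called and 9.65% that were called higher (10.1% were called lower). The same 3 passed on adjusted p without the fold threshold, against 53.0% of the genes tested. The same 3 genes did not overlap between the groups, against 47.5% of the genes tested. The 3 comparisons share samples with each other and are not independent. The smallest two-sided p that the exact permutation test can give with 4 against 4 samples is 0.0286, and each pair of groups that did not overlap reached it.

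**Figure D2:**
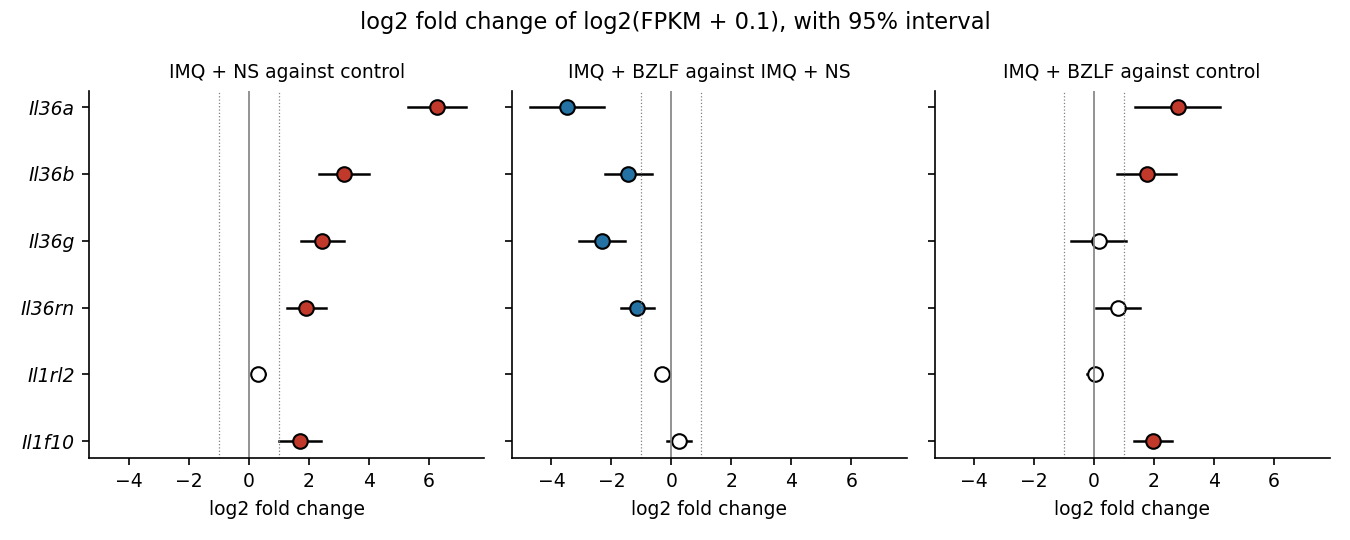
log2 fold change of each gene on the log2(FPKM + 0.1) scale, with its 95% interval, in the 3 comparisons. The estimates for Il36a ran from 6.28 after IMQ to -3.49 after BZLF, and the interval of Il1f10 spanned 0 only for BZLF-treated relative to NS-treated lesions.

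The order of the levels, which FPKM allows because it is scaled to transcript length, changed with treatment. In control skin the order of mean FPKM was Il36rn, Il1rl2, Il1f10, Il36g, Il36b and Il36a. Only the steps from Il1rl2 to Il1f10 and from Il36b to Il36a lay beyond the range of the samples. In IMQ + NS samples the order was Il36rn, Il36a, Il36g, Il36b, Il1f10 and Il1rl2, and each neighbour in it overlapped the next. Il36a thus moved from the last to the second place. In IMQ + BZLF samples the order was Il36rn, Il1f10, Il1rl2, Il36b, Il36g and Il36a, with a gap only between Il1f10 and Il1rl2.

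The FPKM of the 3 ligand genes was added up in each sample to describe their balance. The sum was 6.73, 6.09, 12.9 and 13.9 FPKM in control skin. It was 89.0, 118, 166 and 77.1 FPKM after IMQ and 10.7, 17.1, 39.9 and 26.9 FPKM after IMQ and BZLF. The makeup of the sum differed between the groups. Il36g supplied most of it in control skin, with a mean share of 60.7% ± 7.91 (SD, n = 4). Il36a supplied 5.85% ± 2.79 of it in control skin, 44.2% ± 2.30 after IMQ and 20.2% ± 6.03 after IMQ and BZLF. The share of Il36b was 33.4% ± 6.92, 26.7% ± 2.95 and 50.0% ± 5.12 in the same order of groups. Each of the IMQ + BZLF samples had a larger share of Il36b than any sample of the other groups, the lowest being 44.7% against a highest share of 40.5% in control. The shares of Il36a after BZLF, 13.9% to 27.9%, lay between those of the other groups without overlap.

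Relative to the antagonist, the ligand sum was 0.446 to 0.524 times the FPKM of Il36rn in control skin, 1.31 to 1.82 times after IMQ, and 0.478 to 0.798 times after IMQ and BZLF. The ligand sum exceeded Il36rn in each of the 4 IMQ + NS samples and in none of the other 8. The means of this ratio were 0.501 ± 0.0368, 1.53 ± 0.212 and 0.670 ± 0.153 (SD, n = 4). These sums and ratios are descriptions of RNA, without a test, and they do not give the amounts of active protein.

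**Figure D3:**
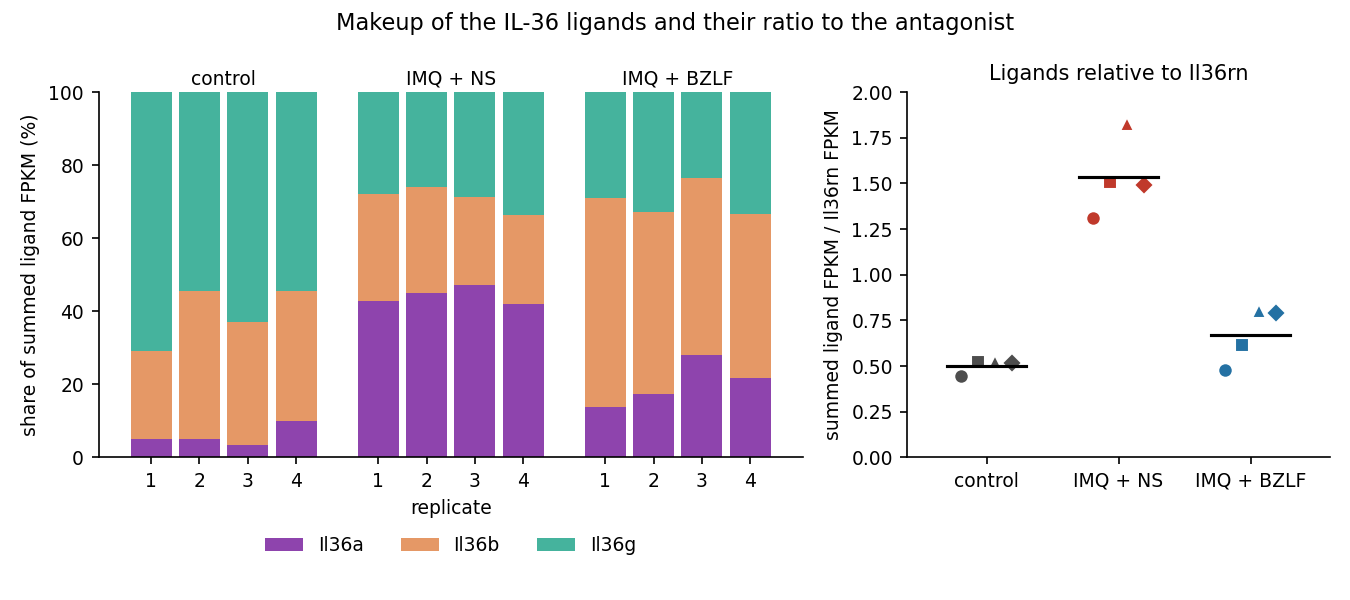
Left, share (%) of Il36a, Il36b and Il36g in the summed ligand FPKM of each sample, by group and replicate. Right, the summed ligand FPKM divided by the FPKM of Il36rn in each sample, with group means as lines. Il36a took 42.1% to 47.1% of the sum in IMQ + NS samples, and the ratio was above 1 only in that group.

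Within a group, the 3 ligand genes and Il36rn moved together from sample to sample. In the IMQ + BZLF group, replicate 3 was highest for all 4 genes, followed by replicates 4, 2 and 1. In the IMQ + NS group replicate 3 was also highest for all 4 genes, and it was lowest for Il1f10. After the group means were subtracted, the Pearson correlation on the log2 scale over the 12 samples was between 0.83 and 0.92 for pairs of these 4 genes and between 0.048 and 0.35 for each of them with Il1f10. These pooled values do not describe each group alone. In control skin Il1f10 ranked the replicates 3, 4, 1 and 2 from highest to lowest, the same order as Il36g. In IMQ + BZLF samples its order was 4, 1, 3 and 2, unlike that of the 4 genes. These samples share their library and cell makeup across genes, so the values are a description.

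**Figure D4:**
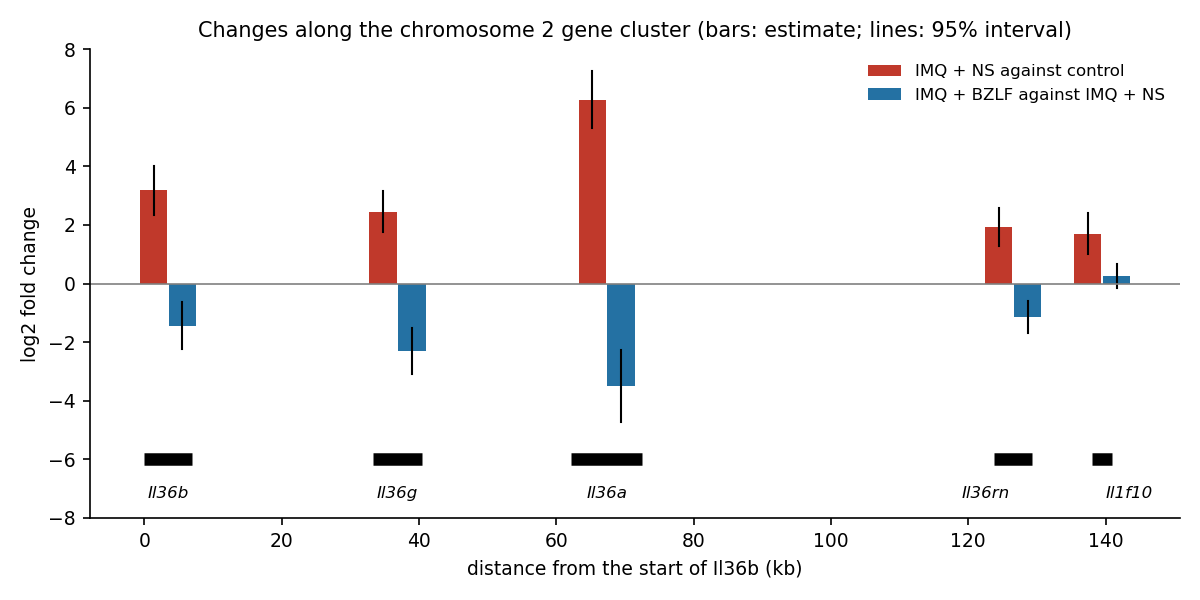
log2 fold changes (bars) with 95% intervals (lines) of the 5 chromosome 2 genes, placed by distance in kb from the start of Il36b, with each gene drawn as a black block. The bars for IMQ + NS against control all pointed up, and the bar for IMQ + BZLF against IMQ + NS pointed down for the first 4 genes and was 0.25 for Il1f10.

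The genes whose pattern over the 12 samples was most like that of each family member were picked by the Pearson correlation of log2(FPKM + 0.1) among the 12651 genes whose FPKM averaged 1 or more. For Il36a they were Stfa1, a cysteine protease inhibitor (r = 0.99), the kallikrein protease gene Klk9 (0.98) and Mal2 (0.98). For Il36b they were Egln3, an oxygen-sensing prolyl hydroxylase (r = 0.98), the phospholipase gene Pla2g4f (0.98) and Lpcat2 (0.97). Ly6d, the glucose transporter gene Slc5a1 and Serpinb3b were most like Il36g (r = 0.98, 0.98 and 0.97). Krt1, the keratin of suprabasal keratinocytes, was most like Il36rn (r = 0.99), followed by Klk9 and Serpinb12 (both 0.97). The pattern of Il1rl2 was most like those of Sirpb1a, Clec12a and Pla2g7 (r = 0.96, 0.95 and 0.94), and that of Il1f10 was most like those of Slc38a3, Gpr157 and Hbp1 (r = 0.98, 0.97 and 0.97). Klk9 was picked for both Il36a and Il36rn, and no other gene was picked more than once. After the group means were subtracted, the 18 correlations were between 0.78 and 0.96. The picks depended on the measure. By rank (Spearman) correlation, Slc38a3, Gpr157 and Hbp1 came 180, 707 and 335 of the 12651 genes for Il1f10. After the group means were subtracted they came 10, 121 and 184. The picks of the other family members came 1 to 61 by Spearman correlation and 2 to 80 after the group means were subtracted.

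Markers of some skin compartments moved with the IL-36 genes, and those of others did not. In bulk samples fewer cells of a type and less RNA per cell cannot be told apart. The 7 epidermal genes summed to 2743 to 5317 FPKM in control, 5806 to 9386 FPKM in NS-treated and 2779 to 5352 FPKM in BZLF-treated skin, and none was at 0. Of the 7, 3 (Krt5, Krt14 and Krt1) were called higher and 1 (Lor) lower after IMQ. After BZLF 1 (Krt14) was called lower and none higher. Of all genes tested, 11.4% were called higher and 11.0% lower after IMQ, and 0.321% and 2.20% after BZLF. The 4 keratins of hyperproliferative epidermis (Krt6a, Krt6b, Krt16 and Krt17) were all called higher after IMQ and 3 of the 4 were called lower after BZLF. Their sum was 190 to 616, 2344 to 4207 and 1140 to 1392 FPKM in the 3 groups. The sum of 9 neutrophil genes was 14.1 to 17.8, 40.5 to 80.6 and 11.1 to 17.7 FPKM, with 7 of 9 called higher and 1 lower after IMQ, 7 of 9 called lower and 1 higher after BZLF, and none at 0. The sum of the 6 macrophage genes, most of it from the abundant C1qa, C1qb and C1qc, was 823 to 1179, 596 to 832 and 383 to 570 FPKM, and the first of these ranges overlapped the second. Of the 6, 0 were called after IMQ and 1 (Adgre1) was called lower after BZLF. Adgre1 differed in direction from the sum after IMQ, with means of 28.6 FPKM in control and 46.0 FPKM in IMQ + NS samples (log2 difference 0.70, adjusted p = 0.0016 in limma). Markers of deeper tissue were lower after IMQ. Called lower were 4 of 4 skeletal muscle genes, 4 of 5 fibroblast genes and 3 of 4 adipocyte genes, and none of these was called after BZLF. The muscle sum was 2653 to 6465, 530 to 1207 and 852 to 1156 FPKM, the fibroblast sum 12535 to 17975, 3455 to 4660 and 4133 to 7794 FPKM, and the adipocyte sum 565 to 1407, 240 to 377 and 318 to 367 FPKM in the 3 groups. Hair shaft keratins were high in both IMQ-treated groups, as was Il1f10, with sums of 11.7 to 55.3, 5327 to 7973 and 7350 to 11336 FPKM. The sum of 6 Langerhans and dendritic cell genes was 14.8 to 23.8, 10.9 to 15.3 and 6.44 to 11.9 FPKM. Of these 6, 2 were called lower after IMQ and 1 lower after BZLF. The T cell sum was 11.3 to 17.0, 8.52 to 17.9 and 5.02 to 11.0 FPKM, and none of the 4 T cell genes tested was called after IMQ or after BZLF. The part of all these compartments in the IL-36 values was not tested.

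Downstream of the receptor, the 28 genes of the receptor complex, its kinases, NF-kappa B and MAP kinases were described by how many passed. None of the 28 was called after IMQ (2 were when control replicate 3 was left out, and 1, Nfkbiz, without control replicate 4 or IMQ + NS replicate 2), and none with IMQ + BZLF set against control (1 without control replicate 2). By the same rule, 22.4% and 19.7% of all genes tested were called in those comparisons. After BZLF 2 of the 28 were called lower against IMQ + NS and none higher, against 2.20% and 0.321% of all genes tested. On adjusted p without the fold threshold, 10 of the 28 were higher and 2 lower after IMQ, with log2 differences between -0.29 and 0.98, against 56.1% of all genes tested in either direction. After BZLF 9 of the 28 were lower than in IMQ + NS samples and none higher, against 6.45%. These were Nfkbiz, Nfkbid, Myd88, Irak3, Nfkb1, Nfkb2, Rela, Rel and Nfkbia, and those other than Nfkbiz and Nfkbid had log2 differences between -0.62 and -0.21. With BZLF set against control, 5 were higher and 8 lower, against 53.0%. The median log2 fold change of the 28 genes was 0.12 after IMQ and -0.18 after BZLF, against 0.053 and -0.023 over all genes tested. Il1rap, the shared subunit, had means of 3.29 ± 0.482, 3.38 ± 0.487 and 2.74 ± 0.412 FPKM (SD, n = 4) in control, NS-treated and BZLF-treated skin, and the groups overlapped. Myd88, the adaptor, had 22.5 ± 1.23, 26.8 ± 2.89 and 18.5 ± 2.96 FPKM, and its log2 difference after BZLF against IMQ + NS was -0.54 (adjusted p = 0.031 in limma), below the fold threshold.

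The 2 called genes were Nfkbiz and Nfkbid, which encode nuclear IκB proteins, the first of them a known mediator of IL-36 responses in keratinocytes. Control samples had 4.65, 5.56, 7.92 and 8.21 FPKM of Nfkbiz, IMQ + NS samples 12.5, 10.2, 15.9 and 13.1 FPKM, and IMQ + BZLF samples 3.47, 4.70, 4.59 and 4.82 FPKM. The IMQ + NS samples were above all others. The log2 fold change of Nfkbiz was 0.98 after IMQ (adjusted p = 0.0039 in limma), just under the fold threshold, and -1.53 after BZLF (SE 0.15, adjusted p = 0.0013 in limma). Nfkbid was low, with means of 0.693 ± 0.33, 1.31 ± 0.404 and 0.358 ± 0.191 FPKM, and its log2 fold change after BZLF was -1.70 (adjusted p = 0.021 in limma). Its call was lost without IMQ + NS replicate 3 or 4 or IMQ + BZLF replicate 2, and that of Nfkbiz was not.

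Of 11 other IL-1 family and receptor genes, 4 were called higher and 1 lower after IMQ, against 11.4% and 11.0% of genes tested. The median log2 fold change of the 11 genes was 0.36. Those called higher were Il1a, Il1b, Il1rn and Il18rap, and the one called lower was Il1r2, which encodes a decoy receptor for IL-1. After BZLF 3 were called lower than in IMQ + NS samples (Il1b, Il33 and Il18rap) and none higher, against 2.20% and 0.321% of genes tested. Il1b, the gene of IL-1β, had 11.98, 17.2, 55.1 and 29.7 FPKM in IMQ + NS and 1.44, 1.82, 2.02 and 3.01 FPKM in IMQ + BZLF samples. All IMQ + BZLF values of Il1b were also below the lowest control value, 5.08 FPKM, and its log2 fold changes after BZLF were -3.53 against IMQ + NS and -1.45 against control (adjusted p = 0.0035 and 0.00062 in limma). Il1a, the gene of the epithelial alarmin IL-1α, behaved otherwise, with means of 1.18 ± 0.331, 4.86 ± 0.935 and 3.88 ± 0.284 FPKM (SD, n = 4). Il1a was called higher than control in both IMQ-treated groups, and its difference after BZLF against IMQ + NS was -0.30 (adjusted p = 0.25 in limma).

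Il1rn, the IL-1 receptor antagonist gene and the next gene beyond Il1f10, had means of 7.23 ± 1.85, 22.5 ± 4.40 and 15.5 ± 0.908 FPKM. Its log2 fold change after IMQ was 1.64 (adjusted p = 0.00024 in limma). The difference after BZLF was -0.52 (adjusted p = 0.040 in limma), which passed on p and not on size, and against control it was 1.12 (adjusted p = 0.0010 in limma), or 0.97 and below the fold threshold without control replicate 1.

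Of 9 proteases that can process IL-36 proteins and their inhibitors, 1 was called higher and 2 lower after IMQ (median log2 fold change 0.11). Over all genes tested these shares were 11.4% and 11.0%. The one called higher was Slpi, an inhibitor of neutrophil elastase, which rose from 1.13 ± 0.329 to 25.2 ± 7.06 FPKM (SD, n = 4, log2 fold change 4.36, adjusted p = 5.9e-06 in limma). Prtn3 and Cst3 were called lower, with 1 of them lost when control replicate 3 was left out, and 3 genes were called higher without control replicate 4. After BZLF 4 of the 9 were called lower than in IMQ + NS samples (Slpi, Elane, Ctss and Serpina3n) and none higher. Of all genes tested, 2.20% were called lower and 0.321% higher. The median log2 fold change of the 9 was -0.996. When 1 sample was left out, 1 to 3 of the 9 were called lower. Serpina3n was barely past the fold threshold, with a log2 fold change of -1.01 (adjusted p = 0.027 in limma). Ctss, which encodes cathepsin S, had 86.5, 109, 132 and 101 FPKM in IMQ + NS and 35.5, 58.0, 60.9 and 58.6 FPKM in IMQ + BZLF samples, without overlap. The log2 fold change of Ctss was -1.02 (adjusted p = 0.015 in limma), so close to the fold threshold that it was -0.96 to -0.99 and no longer called under 3 other scalings of the samples, nor without IMQ + NS replicate 3 or IMQ + BZLF replicate 1. Elane, the elastase gene, was near the limit of the table, with means of 0.340 ± 0.284, 0.701 ± 0.377 and 0.194 ± 0.0842 FPKM, and leaving out single samples ended its call after BZLF in 7 of 8 cases.

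Genes known to respond to IL-36 in skin, were taken as a hand-written list that holds members the study also picked on these samples. Of 23 listed, 19 passed the filter on low values and Csf2, Csf3, Il17c and Il24 did not. Among the 19, 12 were called higher after IMQ and none lower, against 11.4% and 11.0% of all genes tested. After BZLF 13 were called lower than in IMQ + NS samples and none higher, against 2.20% and 0.321%. The median log2 fold changes of the 19 were 3.95 and -3.39, against 0.053 and -0.023 over all genes tested. The list does not give the direction in which each gene responds. Flg was among the 12 (log2 fold change 3.30), and Krt16 was also counted with the hyperproliferative keratins. After IMQ, Vegfa and Cxcl1 passed on adjusted p but not on the fold threshold, in opposite directions. Vegfa was lower, with a log2 fold change of -0.91 (adjusted p = 3.5e-05 in limma). Cxcl1 was higher, with one of 0.90 (adjusted p = 0.023 in limma). The antimicrobial peptide gene Defb3 had 90.4, 153, 378 and 142 FPKM in IMQ + NS samples and 0.640, 0.081, 0.630 and 0 FPKM in IMQ + BZLF samples. IMQ + NS replicate 3 was highest for Defb3, as for the ligand genes. S100a8, a subunit of calprotectin, had a log2 fold change of 7.58 after IMQ and -5.92 after BZLF, S100a9, its partner, one of -7.06 after BZLF, and the keratin gene Krt16 one of 7.53 after IMQ.

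In IMQ + BZLF against control samples, 4 of the 19 response genes were called higher and 4 lower (2 to 4 lower when 1 sample was left out). Of all genes tested, 9.65% were called higher and 10.1% lower. The median log2 fold change of the 19 response genes was -0.079. Those higher included the barrier gene Flg, with means of 1.54 ± 0.358 FPKM (SD, n = 4) in control and 17.8 ± 8.36 FPKM in IMQ + BZLF samples. Flg did not fall after BZLF, its log2 difference from IMQ + NS being 0.070 (adjusted p = 0.93 in limma). Krt16 remained higher than control by a log2 fold change of 2.58 (adjusted p = 0.0032 in limma). Defb4 was listed at 0 in all control samples and had 0.692 ± 0.138 FPKM in IMQ + BZLF samples. The 4 called lower than control were Tnf, Cxcl2, Cxcl1 and Il20. Their log2 fold changes were -2.38, -1.84, -1.15 and -1.09 (adjusted p = 0.00088, 0.0029, 0.040 and 0.032 in limma). Cxcl2 and Il20 were low, with control means of 0.341 and 0.288 FPKM.

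**Figure D5:**
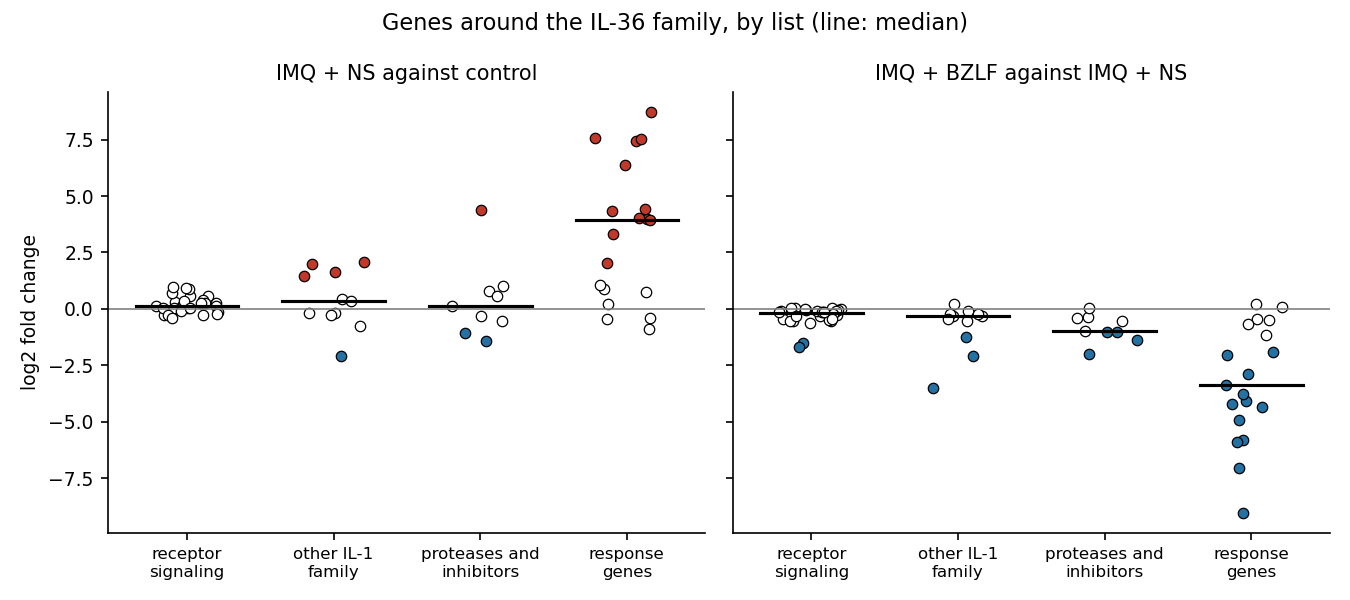
log2 fold change of every tested gene in the 4 lists, with the median of each list as a line; filled points were called (red higher, blue lower) and open points were not. The medians of the response genes were 3.95 and -3.39, while those of the receptor signaling genes were 0.12 and -0.18.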

How the data were processed

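Back skin RNA-seq from 12 mouse samples was used, with 4 per group. The authors deposited FPKM values, 1 per gene and sample, neither pooled nor on a log scale. Their methods name Bowtie2 alignment to mRNA and lncRNA transcripts and eXpress, whereas the submitters' processing notes name fastp, HISAT2, HTSeq, R 3.2.0 and mm10, and the methods and labels also name different extraction reagents and library kits. Which of these made the FPKM values is not given in the sources used here. The counts were not analysed here, so depth is unknown and precision rests on the 4 replicates. The columns of the table all belonged to labelled samples.

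Genes averaging 0.1 FPKM or more across all samples (15288) were tested on log2(FPKM + 0.1), separately for each pair of groups, with limma 3.58.1 in R 4.3.3 (moderated variances with a trend, Benjamini-Hochberg adjustment over all genes), tested on simulated data first. A call needed an adjusted p below 0.05 together with a log2 difference beyond 1 either way. Fold changes of low genes are understated on this scale. The 6 genes were, in addition, put through an exact permutation test (two-sided). Python 3.11.15, pandas 2.3.3 and matplotlib 3.10.9 were used for the rest. Older symbols of the genes studied were matched through RefSeq synonyms. Of the 18505 symbols listed, 18369 were RefSeq symbols as written. Promoters and positions came from RefSeq on GRCm38.p6, and Il36a had no promoter entry in the table used.

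The genes and lists were chosen with earlier results of these data known. Besides the 6 genes, the text names Il1rap, Myd88, Nfkbiz, Ctss, Elane, Il1rn, Il1a and Il1b, the 3 genes of each list with the largest fold change among those called in a comparison, and the 3 genes most like each family member. Il18rap, Serpina3n, Tnf, Cxcl1, Cxcl2, Il20 and Vegfa complete short counts, and the Nfkbid, Il1r2 and Cst3 values follow the same rule. Alternatives covered the constant added, the filter, 3 scalings of the samples, the fit, the threshold, a block on replicate number and leaving out each sample.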

Additional observations from a re-analysis of the deposited data

Results flagged for a closer look

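Samples of a group of 4 were compared by Dixon's ratio, the gap from the most extreme sample to its neighbour divided by the range of the group and read against its 95% critical value. Of 48 groups tested, 4 passed it, where about 1 in 20 would by chance. For Il36a in control skin the ratio was 0.884, with replicate 4 at 1.37 FPKM and the others between 0.312 and 0.434 FPKM. For the summed ligand FPKM over Il36rn in control skin it was 0.871, with replicate 1 at 0.446 and the others between 0.514 and 0.524. In the IMQ + BZLF group, replicate 1 was low for Il1rap (ratio 0.835), with 2.13 FPKM against 2.88 to 3.03 FPKM in the others. The same sample was low for Ctss (ratio 0.885), with 35.5 FPKM against 58.0 to 60.9 FPKM. IMQ + BZLF replicate 1 also had the lowest value of its group for Il36a, Il36b, Il36g, Il36rn and Il1rl2.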

How the results depend on the processing

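Each comparison was recomputed under 12 other settings and 8 fits that each left out 1 sample. The 360 repeated log2 fold changes of the 6 genes held 0 reversals of a called gene, 342 kept their direction and call, 17 lost the call and 1 gained it (Il1rl2 after IMQ, with no fold threshold). The number of family genes called in IMQ + BZLF against IMQ + NS samples, 4, was 2 with all 12 samples in one fit, 2 with no trend on expression and 2 to 4 when 1 sample was left out. Il36b alone was also lost with no filter on low values (adjusted p = 0.065 in limma). In IMQ + NS against control and IMQ + BZLF against control samples, the counts of 5 and 3 were kept in every fit that left out 1 sample. With 1 added before the logarithm, 2191, 205 and 1844 genes of the whole table were called in IMQ + NS against control, IMQ + BZLF against IMQ + NS and IMQ + BZLF against control samples, and with no fold threshold 8569, 986 and 8098 (main counts 3418, 385 and 3017). Leaving out 1 sample gave 252 to 405 genes in IMQ + BZLF against IMQ + NS, the lowest without IMQ + NS replicate 3. Rescaling to equal sums and quantile normalization moved the median of all genes after IMQ by -0.13 and -0.12 on the log2 scale and changed no call of the 6 genes. Of 480 repeated list counts, 26 were lower and 18 higher by over 1.5 times. Same-numbered samples correlated between -0.15 and 0.26 in their deviations from group means, so the numbers were not taken to pair samples, and 3 of 4 or fewer correlated best with their own number. With replicate number as a block, 3414, 382 and 2984 genes and 5, 4 and 3 family genes were called in the same order of comparisons, and the call of Elane after BZLF was lost (adjusted p = 0.051 in limma). The cause of each change was not tested. Without counts, the sampling error of low genes such as Elane, Nfkbid and control Il36a cannot be given.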
